A study of Mus musculus with 20 samples.

Results

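The comparison described here is that of 22.7 with 5.5 mM glucose in MIN6 cells that had been exposed to human amylin for 12 h. Its members were the 3 arrays at 22.7 mM glucose and the 3 arrays at 5.5 mM glucose taken at 12 h, 6 of the 20 arrays of the study, and each array at 22.7 mM was matched with the array at 5.5 mM that had received the same dose of amylin (1, 10 or 20 µM). MIN6 cells are mouse pancreatic beta cells that grow as a line and secrete insulin. The study also holds arrays of 2 and 24 h of amylin at the same doses, and of untreated cells, at both glucose levels. All cells were cultured at 37 °C under 5% CO2, and every array of the 12 h comparison came from amylin-treated cells, so that glucose, and neither amylin nor time, differs within a pair. No condition was arrayed more than once and nothing in the labels describes replicate cultures. Each p-value thus reflects how matched arrays vary, which may in part be technical. The 3 pairs differ in amylin dose, so a glucose difference that changes with dose also enters that spread. MIN6 is a single tumour-derived line.

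Beta cells sense glucose by metabolising it. Uptake and glycolysis raise the ratio of ATP to ADP, the ATP-sensitive potassium channel closes, calcium enters and insulin is released, while glucose metabolites also act on transcription, in large part through the factor ChREBP. The load of proinsulin folding makes the endoplasmic reticulum (ER) of these cells sensitive to stress: the unfolded protein response raises ER chaperones through ATF6 and XBP1, and the integrated stress response acts through the factor ATF4 on genes of amino acid supply and, under lasting stress, of cell death. Human amylin, the peptide that beta cells release together with insulin, forms amyloid and is toxic to beta cells when added in the micromolar range.

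The array of 22.7 mM glucose, 1 µM amylin and 12 h stood apart from the others, and the results are therefore given with and without its pair. Leaving out that pair also leaves out the 1 µM dose, so at 12 h the array and the dose cannot be told apart. The array is 1 of 2 with no scanner description. The other is that of 5.5 mM glucose, 10 µM amylin and 24 h. Their medians were 7.25 and 7.28 on the log2 scale, and those of the other 18 arrays were 7.04 to 7.15. Their mean correlations with the rest were 0.972 and 0.962, and those of the other 18 were 0.986 to 0.990. The actin 3′ minus 5′ signal, which grows with RNA breakdown or partial copying, was 1.66, 1.86 and 1.72 at 22.7 mM (1, 10 and 20 µM) and 1.28, 1.77 and 0.978 at 5.5 mM. It was thus higher at 22.7 mM in all 3 pairs, by 0.087 in the 10 µM pair. The Gapdh 3′ minus 5′ signal was 1.56, 1.39 and 1.21 at 22.7 mM and 0.804, 1.16 and 0.779 at 5.5 mM, higher at 22.7 mM by 0.759, 0.232 and 0.428. The part of these signals in the differences below was not tested beyond a fit with the actin signal as a covariate. At 12 h the arrays at 22.7 mM with 10 and 20 µM amylin were scanned on day 4 and those at 5.5 mM on day 3, and the 1 µM array at 5.5 mM on day 1, so that scan day and glucose cannot be told apart within this time.

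The cells carried the marks of beta cells at both glucose levels. Over the 11 beta cell markers measured here, the log2 signal was between 9.02 and 14.65 at 22.7 mM and between 9.53 and 14.73 at 5.5 mM, and all 11 passed the filter on low values. Ins2, an insulin gene, had 14.65, 14.54 and 14.61 at 22.7 mM, against 14.60, 14.68 and 14.73 at 5.5 mM. Of the 4 hormone markers of other islet cells, Gcg and Sst passed, with signals of 10.83 to 11.61 and 7.16 to 8.71 over the 6 arrays. None of the 5 immune and endothelial markers and 1 of the 6 fibroblast markers (Col1a2) passed the filter, as did 1 of the 3 acinar (Prss2) and 1 of the 3 duct markers (Krt7). Krt7, a keratin gene, had 10.25, 10.72 and 10.98 at 22.7 mM, against 9.83, 10.49 and 10.49 at 5.5 mM, with overlapping groups. Lists of other cell types stood highest in the 1 µM pair. The median differences by pair (1, 10 and 20 µM) were 0.24, −0.10 and 0.03 for the 6 tested genes of the fibroblast list, 0.51, −0.08 and 0.21 for the 3 of the acinar list, 0.29, 0.04 and 0.21 for the 4 of the duct list, and 0.55, −0.07 and 0.05 for the 3 of the immune and endothelial list. The part of these signals in the differences of the 1 µM pair was not tested.

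The comparison asked which genes differ with glucose once the cells had been in amylin for 12 h. With all 3 pairs, genes such as Fxyd6, Txnip and Baiap3 stood higher at 22.7 mM, and genes of ER protein folding such as Hspa5, Dnajc3 and Manf stood lower, but no gene of the 7436 tested passed an adjusted p of 0.05 (limma, 0%). The smallest adjusted p was 0.0751. At an unadjusted p under 0.05, 644 genes were higher (8.66%) and 399 were lower (5.37%), a split that turned to 364 higher and 470 lower when the arrays were centred on their medians. At an adjusted p under 0.1 there were 20 higher (0.269%) and 10 lower (0.134%). A further 2 counts use no test: 1789 genes (24.1%) were higher at 22.7 mM in all 3 pairs and 936 (12.6%) were lower in all 3, and the 3 arrays at 22.7 mM lay above all 3 at 5.5 mM for 996 genes (13.4%) and below them for 482 (6.48%). These shares of all genes are those to set beside the list counts below.

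Leaving out the 1 µM pair brought 9 genes past the threshold, 8 that rose (0.108%) and 1 that fell (0.0134%). Leaving out both arrays with no scanner description, so that the difference at 12 h rested on the 10 and 20 µM pairs and the error on the 7 complete pairs of the series, brought in 126 genes (1.69%), 94 that rose (1.26%) and 32 that fell (0.43%), the 9 among them. With the actin 3′ minus 5′ signal as a covariate in that fit 38 genes passed, 28 higher and 10 lower, and 31 of them were among the 126. Of the 49 genes of the 126 that are named in the text, 20 passed with the covariate: Baiap3, Cryl1, Fam117a, Fbln5, Fbp1, Fbp2, Foxo1, Fxyd6, Hsd17b11, Mlxipl, Mxi1, Nisch, Oat, Plpp1, Prrt1, Psmd7, Reep6, Selenop, Sst and Syt13. The other 29 did not. Among the 9 genes that passed without the 1 µM pair were Fxyd6, Nisch and Foxo1 (limma, adjusted p = 0.0203, 0.0411 and 0.0411). Mlxipl, Dnajc3 and Psmd7, which are among the 126, did not pass there (limma, adjusted p = 0.134, 0.14 and 0.263). Leaving out the 24 h array too changed the error and not the difference at 12 h. The residual degrees of freedom were 6 with all arrays, 5 without the 1 µM pair and 4 without both arrays. The unused 1 µM pair had the same sign as the call for 29 of the 32 genes that fell, or 90.6%, where 54.2% of all genes with a difference below 0 in the other 2 pairs did so. For the 94 genes that rose it had the same sign for 55, or 58.5%, again beside 54.2% of all genes with a difference above 0.

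The pairs differed in how widely their genes were spread. The SD of the differences over the 7436 genes was 0.391, 0.247 and 0.308 in the 1, 10 and 20 µM pairs, and 135, 19 and 47 genes differed by more than 1 on the log2 scale. Across genes, which are not independent replicates, the correlation of the differences was −0.067 between the 1 and 10 µM pairs, 0.26 between the 1 and 20 µM pairs and 0.548 between the 10 and 20 µM pairs. The median difference over all genes was 0.06 with 3 pairs.

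**Figure D1:**
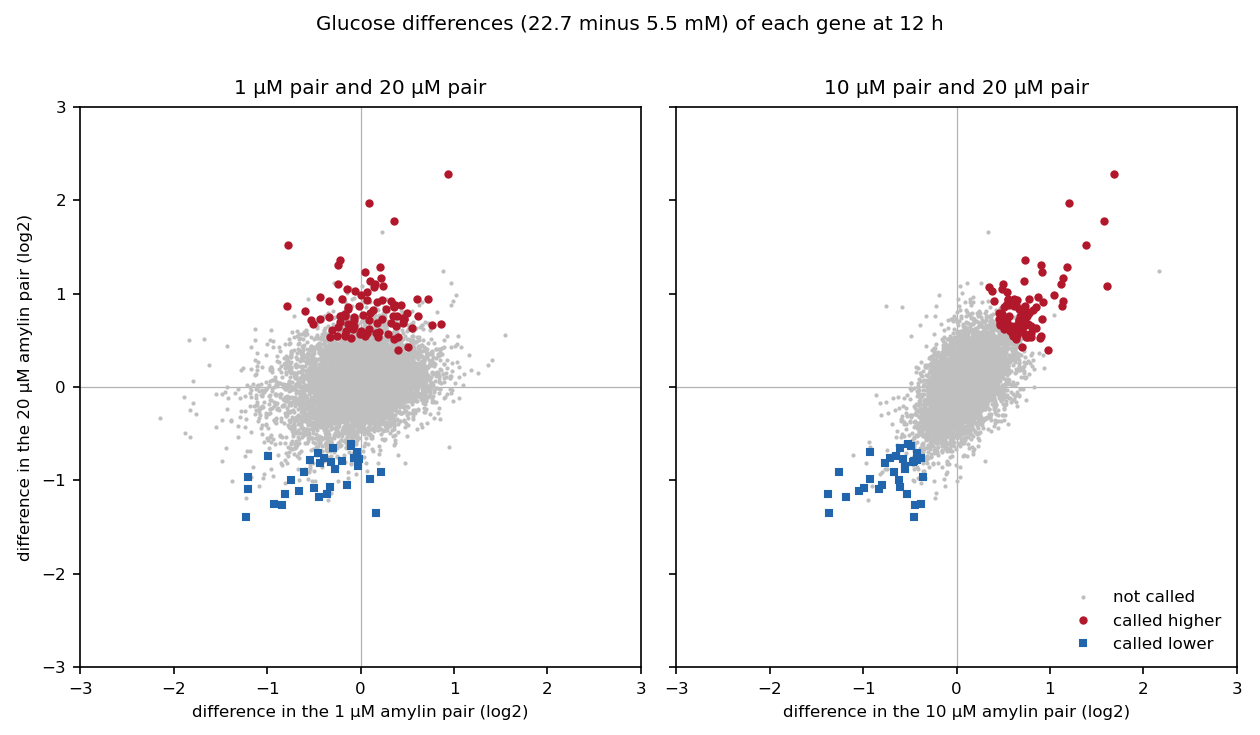
Difference of each of the 7436 genes (22.7 minus 5.5 mM glucose, log2) in the 20 µM amylin pair on the vertical axes, set against the 1 µM pair at left and the 10 µM pair at right. Red circles and blue squares are the 94 genes called higher and the 32 called lower without both deviating arrays. That fit used the 10 and 20 µM pairs at 12 h and not the 1 µM pair. Along the 1 µM axis of the left panel, the blue squares lie mostly left of 0 and the red circles lie on both sides of 0.

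Fxyd6, which encodes a regulatory subunit of the sodium pump, had the largest difference among the genes of smallest p. Its signal was 7.25, 8.23 and 8.65 at 22.7 mM glucose with 1, 10 and 20 µM amylin, and 6.31, 6.55 and 6.36 at 5.5 mM. The groups did not overlap, and the 1 µM array was the lowest of the 3 at 22.7 mM. The difference was 1.63 (SE 0.27, 3.11-fold, adjusted p = 0.0751), and without both deviating arrays Fxyd6 rose by 1.99 (SE 0.25, adjusted p = 0.00356). Over all the settings tried, the adjusted p of Fxyd6 at 12 h was between 0.000377 and 0.772, the highest value without the 20 µM pair, and its difference was between 1.31 and 2.08. Baiap3, which acts in the trafficking of dense-core vesicles, had 7.22, 8.46 and 8.80 at 22.7 mM, against 6.86, 6.88 and 7.02 at 5.5 mM. Its difference was 1.24 (SE 0.25, adjusted p = 0.0751), of which the 1 µM pair showed the least, and without both arrays it rose by 1.68 (SE 0.16).

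The rule for named genes gave 10 genes in each direction, the 10 of smallest p with the same sign in all 3 pairs, since none passed the threshold. The 10 that were higher had differences of 0.64 to 1.63 and adjusted p-values of 0.0751, and 7 of them rose without both deviating arrays. Besides Fxyd6 they were Npepl1 (0.81), a probable aminopeptidase gene, Uroc1 (0.78), urocanase of histidine breakdown, Vat1 (0.75), a vesicle membrane protein gene, and Rsad2 (0.72), the interferon-induced gene of viperin. The remainder were St6gal1 (0.70), a sialyltransferase of the Golgi, Nisch (0.69), which encodes an integrin-binding protein, Rem2 (0.68), Snapc2 (0.66), a subunit of the complex that transcribes small nuclear RNA genes, and Hsd17b11 (0.64), an enzyme gene of lipid droplets. Rem2 encodes a small GTPase that inhibits voltage-gated calcium channels. Its signal was 7.90, 7.58 and 7.71 at 22.7 mM, against 7.04, 7.07 and 7.04 at 5.5 mM. All 3 arrays at 22.7 mM stood above the 3 at 5.5 mM, which were nearly equal, and Rem2 rose by 0.59 without both deviating arrays (SE 0.12, adjusted p = 0.0327). Vat1, Uroc1 and Snapc2 did not pass in that fit (0.63, 0.69 and 0.55). Weaker probe sets gave mean differences of 0.20 for Vat1, −0.10 for Uroc1 and 0.37 for St6gal1. Those of Nisch gave 0.22 to 0.40. They were lower at 22.7 mM in the 1 µM pair (−0.97, −0.54 and −0.26) and higher in the 10 and 20 µM pairs.

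The 10 genes that were lower had differences of −1.02 to −0.59 and adjusted p-values of 0.0751 to 0.0842, and 7 of them fell without both deviating arrays. Map1b, a microtubule-associated protein gene, had 6.49, 6.72 and 6.59 at 22.7 mM, against 7.73, 7.17 and 7.98 at 5.5 mM. The groups did not overlap, the difference was smallest in the 10 µM pair, and the fitted value was −1.02 (SE 0.20), while 2 further probe sets of Map1b with lower signal differed by −0.08 and 0.20. Trim35 (−0.94), a gene of the tripartite motif family, Parl (−0.86), a protease of the mitochondrial inner membrane, and Cirbp (−0.85), a cold-inducible RNA-binding protein gene, followed. Hmgb3 (−0.79) encodes a chromatin protein, Mgat2 (−0.79) a glycosyltransferase of N-glycan synthesis in the Golgi, Ifrd1 (−0.74) a transcriptional co-regulator and Syt13 (−0.73) a synaptotagmin. Fkbp11 (−0.67) and Manf (−0.59), which belong to the ER and its secreted stress proteins, complete the group. Mgat2, Ifrd1 and Manf did not pass without both arrays.

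**Figure D2:**
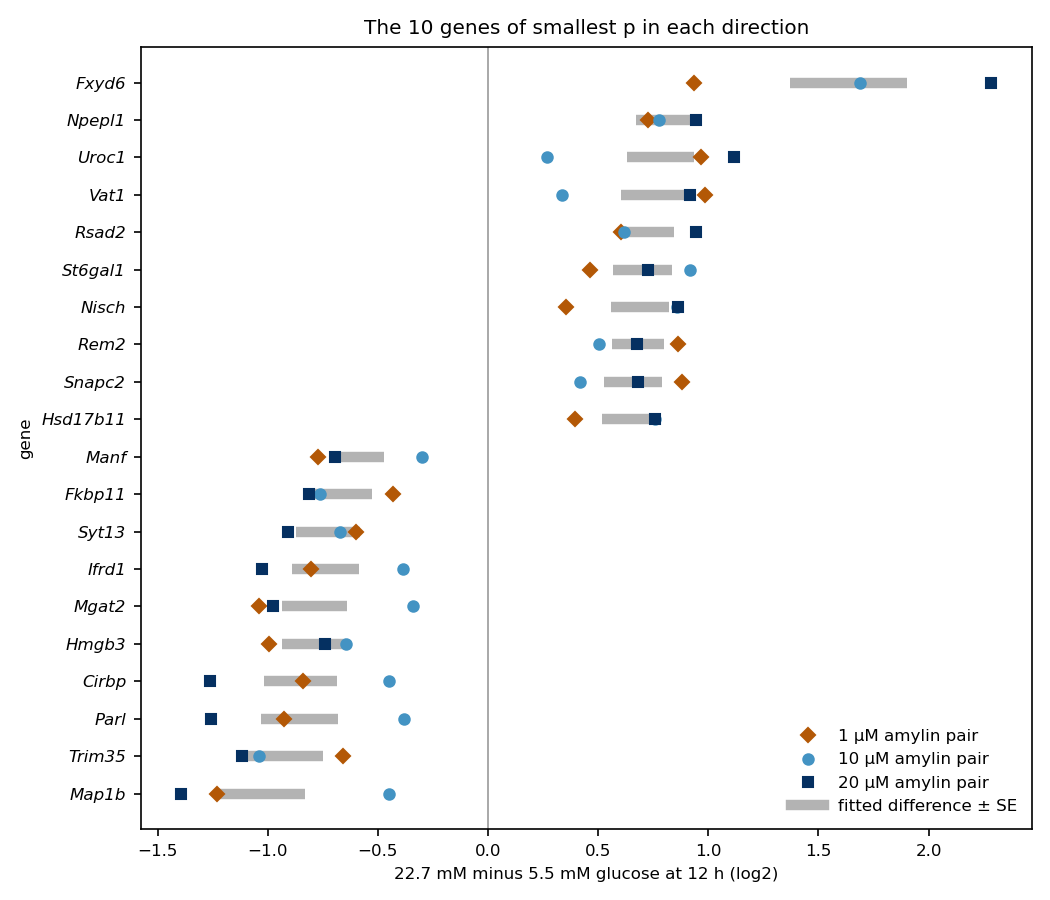
Differences (22.7 minus 5.5 mM glucose, log2) at 12 h of the 10 genes of smallest p in each direction. Symbols are the dose-matched pairs, and grey bars are the fitted difference ± SE over 3 pairs. All symbols of the upper 10 genes lie above 0 and all symbols of the lower 10 lie below 0, which the rule required.

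Among genes that respond to glucose, Txnip had the largest difference. Txnip encodes a thioredoxin-binding protein that restrains glucose uptake and is a well-known target of ChREBP. Its signal was 8.20, 9.37 and 8.83 at 22.7 mM, against 7.32, 7.20 and 7.59 at 5.5 mM. The groups did not overlap, but the pairs were spread widely (0.88, 2.17 and 1.24), and the difference of 1.43 did not pass (SE 0.42, 2.70-fold, adjusted p = 0.169, and 0.0903 without both deviating arrays). A second, weaker Txnip probe set differed by 0.37. Mlxipl, the gene of ChREBP itself, had 10.80, 11.87 and 12.22 at 22.7 mM, against 11.04, 10.96 and 10.91 at 5.5 mM. It was lower at 22.7 mM in the 1 µM pair and higher in the other pairs, and without both deviating arrays it rose by 1.11 (SE 0.16, adjusted p = 0.00374).

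The 21 tested genes of the list of ChREBP targets and lipogenic genes had a median difference of 0.14, beside 0.06 for all genes, and of −0.17, 0.24 and 0.16 in the 1, 10 and 20 µM pairs. Of the 21, 5 were higher and 2 were lower in all 3 pairs, close to the 24.1% and 12.6% of all genes. Mlxipl and Fads1, a fatty acid desaturase, rose without both deviating arrays. Scd1, the stearoyl-CoA desaturase, was higher by 0.47 (SE 0.16), and Tkt, transketolase of the pentose phosphate pathway, had a difference of −0.63 (SE 0.22), with no overlap of the groups for either gene. The list of glucose uptake and glycolysis had a median of 0.21 over 14 genes, with 0.12, 0.16 and 0.22 in the pairs. In this list 7 of 14 genes were higher in all 3 pairs, where 24.1% of all genes were, and 3 had all arrays at 22.7 mM above all at 5.5 mM, where 13.4% of all genes did. Aldoc, an aldolase, had 8.33, 8.79 and 8.89 at 22.7 mM, against 8.24, 8.01 and 8.10 at 5.5 mM. The difference was 0.56 (SE 0.17), and Aldoc was the member that rose without both deviating arrays (0.79, SE 0.17, adjusted p = 0.0373). Pfkfb2 (0.32) and Pfkm (0.28), which encode enzymes of the phosphofructokinase step, did not pass.

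Downstream of glycolysis, the 24 genes of the citrate cycle and anaplerosis had a median of −0.08, with −0.18, 0.05 and −0.17 in the pairs. Without both deviating arrays the median was −0.03. In all 3 pairs 6 genes were lower and 1 was higher. Among the 6 were Dld (−0.76), the shared subunit of the pyruvate and oxoglutarate dehydrogenases, and Fh1 (−0.47), fumarase. Sdhc (−0.35), of succinate dehydrogenase, and Mdh1 (−0.28), the cytosolic malate dehydrogenase, were also among them. None of the 24 passed in either fit. The 41 genes of the respiratory chain and ATP synthase had a median of 0.01, and centring the arrays turned this median to −0.04. Of the 41, 8 were higher and 6 were lower in all 3 pairs, beside 24.1% and 12.6% of all genes.

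**Figure D3:**
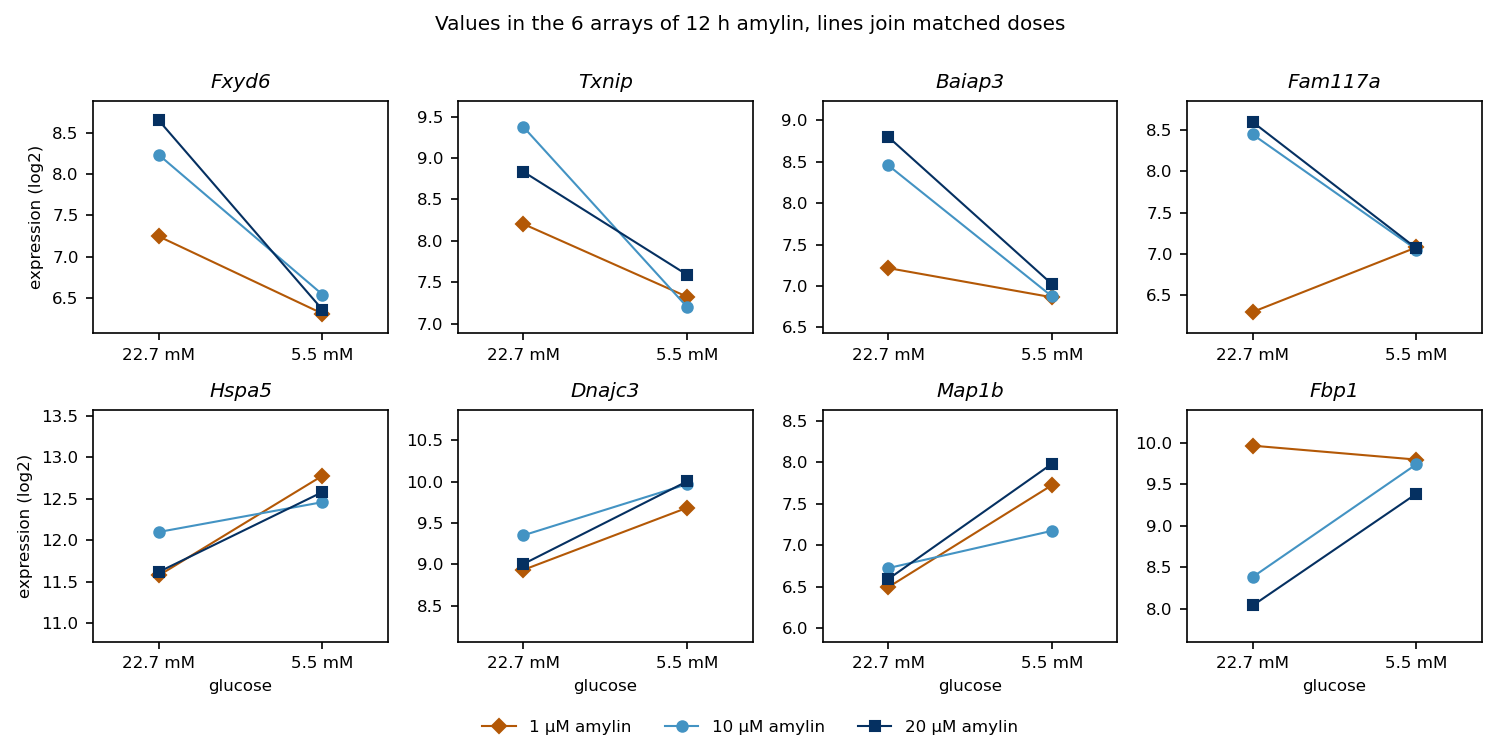
Log2 expression of 8 genes in the 6 arrays of 12 h amylin, at 22.7 and 5.5 mM glucose, with lines joining arrays of the same amylin dose. The panels span the same range of log2 units. Fxyd6, Txnip and Baiap3 lie higher and Hspa5, Dnajc3 and Map1b lower at 22.7 mM in each pair, and for Fam117a and Fbp1 the 1 µM array at 22.7 mM lies apart from the 10 and 20 µM arrays.

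Chaperones and disulfide isomerases of the ER were lower at 22.7 mM. Of the 27 genes tested in this list, 16 were lower in all 3 pairs, where 12.6% of all genes were, 1 was higher in all 3, and 14 had all 3 arrays at 22.7 mM below all 3 at 5.5 mM, where 6.48% of all genes did. The median difference was −0.26, with −0.21, −0.30 and −0.36 in the pairs. Hspa5, which encodes the main ER chaperone BiP, had 11.57, 12.10 and 11.62 at 22.7 mM, against 12.78, 12.46 and 12.58 at 5.5 mM. The arrays at 22.7 mM were all lower, least so in the 10 µM pair, and the difference was −0.84 (SE 0.20, 0.557-fold, adjusted p = 0.121). Without both deviating arrays Hspa5 fell by 0.66 (SE 0.15, adjusted p = 0.0409), and a second probe set gave a mean difference of −1.05. For Hspa5 at 12 h the settings tried gave adjusted p-values of 0.00752 to 0.772 and differences of −1.08 to −0.50.

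Dnajc3, the co-chaperone p58IPK that also inhibits the kinase PERK, had 8.93, 9.35 and 9.0 at 22.7 mM, against 9.68, 9.97 and 10.00 at 5.5 mM. All 5 of its probe sets were lower at 22.7 mM in all 3 pairs, with mean differences of −1.04 to −0.72, and the one used gave −0.79 (SE 0.18, adjusted p = 0.106). Dnajc3 fell by 0.81 without both deviating arrays, as did the disulfide isomerase genes Pdia3 (−0.84) and Pdia6 (−0.72), the BiP co-chaperone Dnajb11 (−0.70) and the prolyl isomerase Fkbp11 (−0.79), which together with Hspa5 make 6 of 27 genes (0.43% of all genes fell in that fit). None of these 6 passed once the actin covariate was added to that fit, with differences of −0.87 to −0.50 and adjusted p-values of 0.0501 to 0.161. Fkbp11 had 2 weaker probe sets with mean differences of 0.21 and −0.01. Manf, a secreted protein released on depletion of ER calcium, had 11.78, 12.20 and 11.72 at 22.7 mM, against 12.55, 12.50 and 12.42 at 5.5 mM, and its difference of −0.59 (SE 0.12) did not pass in either fit. For Manf and for Fkbp2 (−0.53), a prolyl isomerase gene that did not pass either, the groups did not overlap.

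The promoters of 3 of these genes are shown because they hold the ER stress response element (ERSE), the site through which ATF6, together with the factor NF-Y, is known to act on ER chaperones. It was searched on both strands as CCAAT and CCACG separated by any 9 bases, in windows of 250 bases before to 50 after the start of transcription (RefSeq, build GRCm38.p6), and it was chosen after the values were seen. The 250 bases before the start are printed 5′ to 3′, with the element in capitals.
Hspa5, chr2:34771840-34772089, + strand: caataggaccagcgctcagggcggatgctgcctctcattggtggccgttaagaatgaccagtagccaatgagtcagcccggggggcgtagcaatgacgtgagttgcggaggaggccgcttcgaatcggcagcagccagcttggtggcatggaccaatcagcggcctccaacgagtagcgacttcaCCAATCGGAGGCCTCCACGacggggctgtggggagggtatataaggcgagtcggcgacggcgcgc
Dnajc3, chr14:118937682-118937931, + strand: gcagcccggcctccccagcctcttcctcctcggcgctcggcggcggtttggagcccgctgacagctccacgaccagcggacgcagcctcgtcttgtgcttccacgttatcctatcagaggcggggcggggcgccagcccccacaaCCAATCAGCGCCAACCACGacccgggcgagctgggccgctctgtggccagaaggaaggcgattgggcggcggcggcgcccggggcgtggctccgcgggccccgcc
Pdia6, chr12:17266339-17266588, + strand: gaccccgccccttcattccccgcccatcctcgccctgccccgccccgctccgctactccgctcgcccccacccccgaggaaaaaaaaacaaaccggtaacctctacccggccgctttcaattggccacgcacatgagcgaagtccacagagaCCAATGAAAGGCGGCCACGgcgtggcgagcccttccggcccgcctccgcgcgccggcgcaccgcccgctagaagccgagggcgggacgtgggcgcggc
The element begins at position −65 in Hspa5, −105 in Dnajc3 and −98 in Pdia6, counted from the start of transcription.

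The ERSE occurs in 39 of 32851 promoters (0.119%) and in 8 of the 23 tested ER chaperone genes for which a promoter was found in the RefSeq table. The 8 had a median difference of −0.57 and the 15 without the element one of −0.26. The share lower in all 3 pairs was alike, 5 of the 8 (62.5%) and 9 of the 15 (60%). Without both deviating arrays 3 genes fell in each group. Among the 8, Hspa5, Dnajc3, Hsp90b1, Pdia6 and Creld2 were lower in all 3 pairs, with differences of −0.84 to −0.57, whereas Canx (−0.22) and Calr (−0.04), which encode the lectin chaperones calnexin and calreticulin, were not, and the oxidase gene Ero1b (0.17) was higher in all 3. Outside that list 6 tested genes held the element, with a median of 0.05, and of these Derl3, of ER-associated degradation, was the 1 that was lower in all 3 pairs (−0.73). Because the list was chosen for its role in the ER, these counts describe its members, and a match is no measure of binding.

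The 25 genes of ER-associated degradation and of the stress sensors had a median of −0.25, but the 1 µM pair gave most of it (−0.49, against −0.04 and −0.11 in the 10 and 20 µM pairs). In all 3 pairs 11 genes were lower and 1 was higher, and none passed in either fit. Selenos (−0.59), Derl3 (−0.73), Sel1l (−0.71) and Ufd1 (−0.46), all of the retrotranslocation machinery, had no overlap between the groups. Among 35 proteasome subunits, 15 were lower and 3 were higher in all 3 pairs, with a median of −0.16. Psmd7, of the regulatory lid, had 6.97, 7.53 and 7.60 at 22.7 mM, against 8.18, 8.36 and 8.70 at 5.5 mM. It fell by 0.96 without both deviating arrays (SE 0.15, adjusted p = 0.0106), as did Psma4 (−0.57), a subunit of the core, although the other 2 probe sets of Psmd7 differed by 0.20 and 0.15. The cytosolic heat shock proteins had a median of −0.04 over 23 genes, with none called in either fit, and the sign of that median turned with scan day as a term (0.01).

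Genes of the integrated stress response were lower at 22.7 mM in most pairs. Of 17 genes tested, 10 were lower in all 3 pairs and none was higher in all 3. The median difference was −0.31, the lowest of the 28 lists with at least 5 tested genes, with −0.31, −0.48 and −0.30 in the pairs. None of the 17 passed in either fit. Atf4, the transcription factor of this response, had 11.34, 11.06 and 11.13 at 22.7 mM, against 11.49, 11.71 and 11.67 at 5.5 mM. The groups did not overlap, and the difference was −0.44 (SE 0.17, adjusted p = 0.272). Nupr1, a small stress-induced chromatin protein gene, had 7.88, 7.58 and 7.56 at 22.7 mM, against 8.37, 8.49 and 8.62 at 5.5 mM, a difference of −0.82 (SE 0.35). Ddit3, which encodes the death-promoting factor CHOP, differed by −0.38, −0.59 and −0.53 in the pairs (fitted −0.50, SE 0.21), and Trib3, an inhibitor of AKT induced by ATF4 and CHOP, differed by −0.60 (SE 0.29) with almost no difference in the 1 µM pair (7.94, against 7.99). Atf5, a further factor of this response, differed by −0.91 (SE 0.37) with overlapping groups.

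Genes of amino acid synthesis and transport under ATF4 had a median of −0.27 over 16 genes, 11 of which were lower and 1 higher in all 3 pairs. Psat1 and Psph, both enzymes of serine synthesis, differed by −0.75 (SE 0.24) and −0.77 (SE 0.24), the arginine transporter Slc7a3 by −0.76 (SE 0.31) and the asparagine synthetase Asns by −0.41 (SE 0.20). For each of these 4 genes the arrays at 22.7 mM lay below all those at 5.5 mM, and none passed. Of 18 aminoacyl-tRNA synthetases, 10 were lower and none was higher in all 3 pairs, with a median of −0.18; Nars (−0.53) and Iars (−0.41) had no overlap. In these 3 lists no gene was called in either fit, so the counts of shared direction are the measurement.

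**Figure D4:**
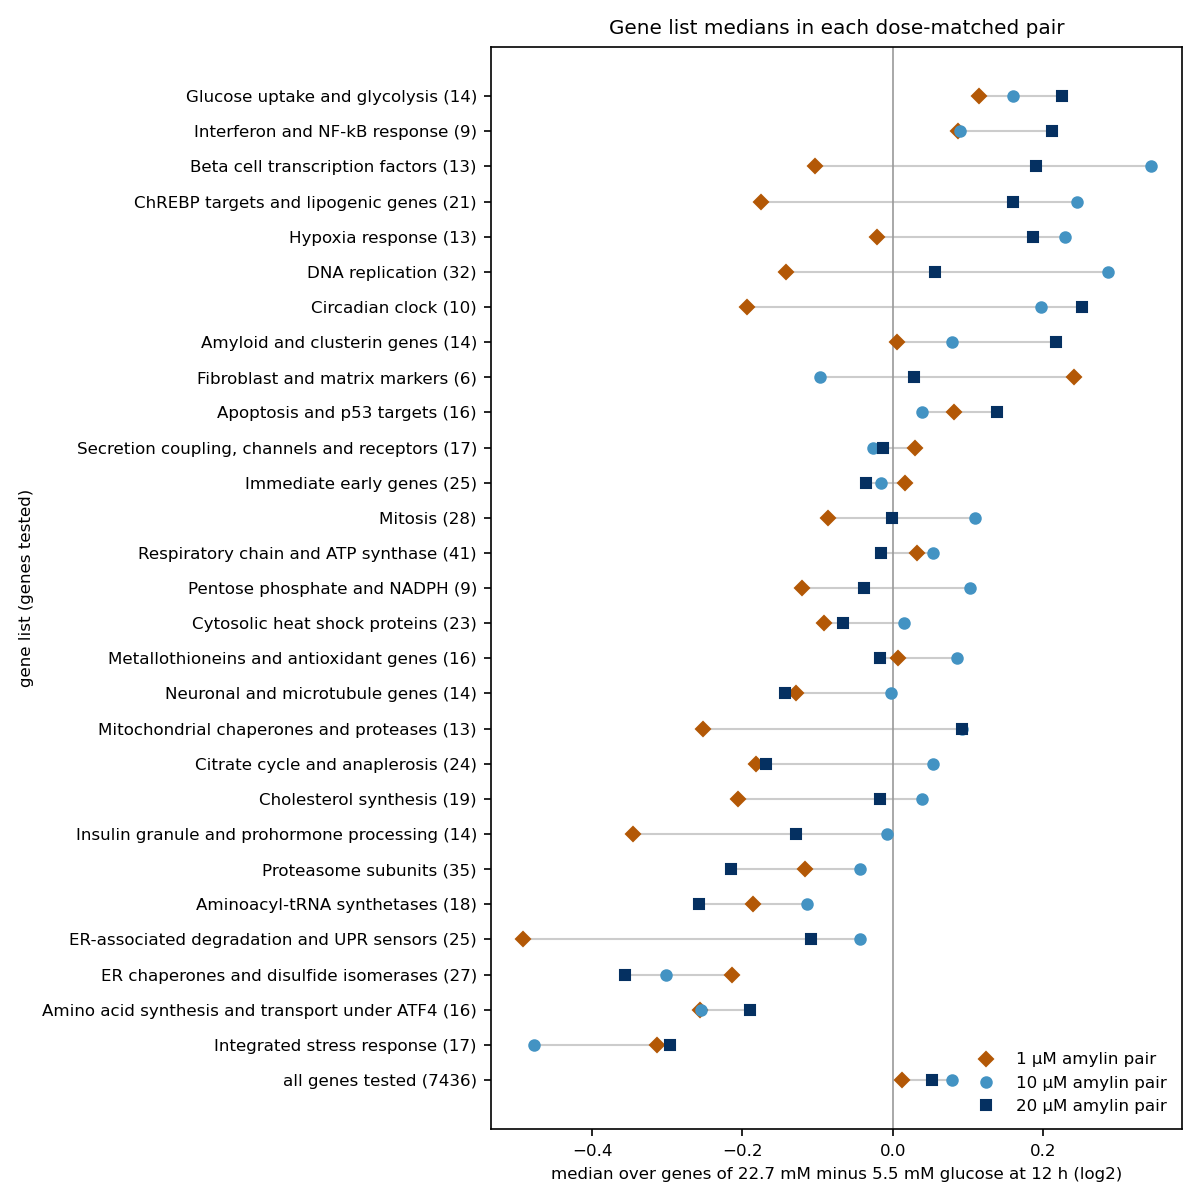
Median difference (22.7 minus 5.5 mM glucose, log2) of each list with at least 5 tested genes in the 1, 10 and 20 µM amylin pairs at 12 h, with the number of genes tested in brackets and all 7436 genes at the bottom. The lists of the integrated stress response, of amino acid synthesis and of ER chaperones lie between −0.48 and −0.19 in each pair, whereas beta cell transcription factors and ChREBP targets lie below 0 in the 1 µM pair and above 0 in the others.

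Beta cell transcription factors had a median of 0.16 over 13 genes, but of −0.10 in the 1 µM pair against 0.34 and 0.19 in the 10 and 20 µM pairs. Foxo1, a factor that insulin signalling keeps out of the nucleus, had 7.48, 8.43 and 8.58 at 22.7 mM, against 7.33, 7.31 and 7.47 at 5.5 mM. The 1 µM array was only just above the arrays at 5.5 mM, and Foxo1 rose by 1.11 without both deviating arrays (SE 0.18, adjusted p = 0.0106). Nkx6-1, a factor that keeps beta cells from other islet fates, had 9.02, 10.57 and 10.67 at 22.7 mM, against 9.53, 10.04 and 10.00 at 5.5 mM. It was lower at 22.7 mM with 1 µM amylin and higher with 10 and 20 µM, and it rose by 0.60 without both deviating arrays (adjusted p = 0.0433). Nkx2-2 (0.44) and Foxa2 (0.37) did not overlap between the groups and did not pass. Pdx1, the factor at the head of beta cell identity, differed by 0.11 (SE 0.15) with overlapping groups, and its second probe set had a mean difference of −0.50, so that its direction was not settled by these arrays.

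Of genes of hormone storage and release, Ins2 differed by −0.07 (SE 0.07) and Iapp, the mouse gene of amylin, by −0.15 (SE 0.08), both with overlapping groups. Chgb, a granin of the secretory granule, differed by −0.37 (SE 0.12) with no overlap, and Cpe, the carboxypeptidase of prohormone processing, by −0.43 (SE 0.20). Abcc8, which encodes the sulfonylurea receptor of the potassium channel, had 11.64, 12.28 and 12.31 at 22.7 mM, against 11.62, 11.57 and 11.54 at 5.5 mM. The 1 µM array at 22.7 mM was only just above those at 5.5 mM, and Abcc8 rose by 0.74 without both deviating arrays (adjusted p = 0.0433). The glucose transporter Slc2a2 (0.19) and the incretin receptor Glp1r (−0.35) had overlapping groups. In the list of secretion coupling, which also holds Fxyd6, 5 of 17 genes were higher in all 3 pairs, beside 24.1% of all genes. Another 5 of the list were lower in all 3 pairs, beside 12.6% of all genes. Among those that were lower, Rgs2 (−0.47), a regulator of G protein signalling, and Syt4 (−0.40), a synaptotagmin of granule maturation, had no overlap, and Syt7 (0.42), the calcium sensor of granule fusion, was higher.

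In the list of other islet hormones, 3 of 4 tested genes were lower in all 3 pairs, and the hormone genes Sst and Gcg fell without both deviating arrays. Sst, somatostatin, had 8.21, 7.34 and 7.16 at 22.7 mM, against 8.57, 8.71 and 8.31 at 5.5 mM. The groups did not overlap, and the difference was −0.96 (SE 0.26, adjusted p = 0.146). Gcg, which encodes glucagon, had 11.31, 11.00 and 10.83 at 22.7 mM, against 11.60, 11.61 and 11.48 at 5.5 mM, a difference of −0.52 (SE 0.13). Without both deviating arrays Sst fell by 1.26 (SE 0.20, adjusted p = 0.00873) and Gcg by 0.63 (SE 0.14, adjusted p = 0.0409). In bulk RNA, fewer cells with a transcript and less transcript per cell cannot be told apart.

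The largest of the 126 calls included several genes on which the 1 µM pair went against the others, and these were chosen after their values were seen. Fbp1, fructose-1,6-bisphosphatase of gluconeogenesis, had 9.97, 8.38 and 8.04 at 22.7 mM, against 9.80, 9.74 and 9.39 at 5.5 mM. The 1 µM array at 22.7 mM was the highest of the 6 and the 10 and 20 µM arrays were the lowest, so that the 3 pairs gave −0.85 (SE 0.32, adjusted p = 0.267) and the fit without both deviating arrays −1.36 (SE 0.19, adjusted p = 0.00374). Fbp2, the paralogous muscle enzyme, had 8.17, 7.29 and 7.20 at 22.7 mM, against 8.07, 8.22 and 8.19 at 5.5 mM, and fell by 0.95 in that fit. Fbln5, an extracellular matrix protein gene, showed the same split, with a fall of 1.08.

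Fam117a had the opposite pattern, with 6.30, 8.44 and 8.59 at 22.7 mM, against 7.08, 7.05 and 7.07 at 5.5 mM. The 3 arrays at 5.5 mM were nearly equal, the 1 µM array at 22.7 mM was the lowest of the 6, and Fam117a rose by 1.46 without both deviating arrays (SE 0.14, adjusted p = 0.000264). Reep6 (1.07), Jun (0.78), a subunit of the AP-1 factor, Mxi1 (0.65), which antagonises MYC, and Krt18 (0.74), an epithelial keratin gene, also rose in that fit with overlapping groups in the 3 pairs. Selenop, a selenium transport protein gene, had 10.31, 11.51 and 11.37 at 22.7 mM, against 10.07, 9.89 and 10.29 at 5.5 mM. It rose by 1.35 (adjusted p = 0.023), together with Fam151a (1.59), Cryl1 (1.24), a crystallin-like dehydrogenase gene, Prrt1 (1.15), a synaptic membrane protein gene, Nisch (0.86) and Clu (0.82), the extracellular chaperone clusterin. Clu had 10.28, 10.90 and 10.75 at 22.7 mM, against 10.14, 10.08 and 9.92 at 5.5 mM, with the 1 µM array again the closest to the lower group.

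Other genes that fell in that fit did so with the 1 µM pair on the same side. Plpp1, a lipid phosphatase gene, had 8.26, 7.73 and 7.47 at 22.7 mM, against 8.71, 8.91 and 8.65 at 5.5 mM, and fell by 1.18. Oat, the ornithine aminotransferase of mitochondria, had 8.25, 7.93 and 7.74, against 8.75, 8.92 and 8.82, and fell by 1.03. Nucb2, the precursor gene of nesfatin, fell by 0.93. Srxn1, the sulfiredoxin that restores oxidised peroxiredoxins, had 9.09, 8.63 and 8.35 at 22.7 mM, against 9.42, 9.24 and 9.43 at 5.5 mM, and fell by 0.84 (adjusted p = 0.0168).

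Metallothioneins, which bind zinc, were higher at 22.7 mM in all 3 pairs. Mt1 had 12.69, 12.78 and 12.91 at 22.7 mM, against 11.79, 12.10 and 12.42 at 5.5 mM, a difference of 0.69 (SE 0.14, adjusted p = 0.0751), and Mt2 had 11.87, 12.23 and 12.26, against 11.08, 11.64 and 11.78, a difference of 0.62 (SE 0.16). The groups did not overlap for either gene, the signal at 5.5 mM was higher at each higher dose, and neither gene passed without both deviating arrays (adjusted p = 0.0573 and 0.139). In the interferon and NF-kB list, 5 of 9 genes were higher in all 3 pairs, with a median of 0.20. Oas1a (0.44), an antiviral RNA-sensing enzyme, and Irf1 (0.32), an interferon-responsive factor, did not overlap between the groups and did not pass. The list of apoptosis and p53 targets had a median of 0.05 over 16 genes. Of these, 5 were higher and 2 were lower in all 3 pairs, beside 24.1% and 12.6% of all genes. Sesn1 (0.51), a stress-responsive regulator of mTORC1, rose by 0.72 without both deviating arrays (adjusted p = 0.036) and was the only member to pass in that fit. Mdm2, which encodes the ubiquitin ligase of p53, differed by −0.29, with −0.84 for its second probe set. Ccng1, which encodes cyclin G1, differed by −1.80, 0.19 and −0.17 in the pairs, and its other 2 probe sets had mean differences of −0.65 and −0.66 and were lower at 22.7 mM in all 3 pairs. The lists of DNA replication (median 0.11), mitosis (0.02) and immediate early genes (0.04) stood beside 0.06 for all genes over the 3 pairs. DNA replication had −0.14, 0.29 and 0.06 in the 1, 10 and 20 µM pairs. Without both deviating arrays these lists had medians of 0.19, 0.06 and 0.03, beside 0.07 for all genes.

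The difference at 12 h was set against those at 2 and 24 h, to see whether any gene behaved unlike the other times. No gene passed for the difference at 12 h minus the mean of those at 2 and 24 h (limma, adjusted p under 0.05, 0%), and 174 genes (2.34%) were above and 158 (2.12%) below at an unadjusted p under 0.05. At 2 h and at 24 h alone no gene passed in the same limma fit, with 620 (8.34%) and 1496 (20.1%) genes at an unadjusted p under 0.05. Across the 7436 genes the difference at 12 h correlated with that at 2 h at 0.64 and with that at 24 h at 0.0886. Once the 2 deviating pairs were left out, these correlations were 0.533 and 0.512. The differences at the 3 times share no array, but the actin 3′ minus 5′ signal was higher at 22.7 mM in every pair of 2 and 24 h too. The order of scan days varied between pairs. The 10 µM pair of 2 h, for example, was scanned on day 3 at 22.7 mM and on day 4 at 5.5 mM.

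Uroc1, Rsad2, Igtp, an interferon-induced GTPase gene, Myo9b and Tlk2 had the smallest p for a difference more positive at 12 h, and Trib2, Syp, Parl, Syt5 and Acsl4 for one more negative. None passed (adjusted p = 0.855). Uroc1 differed by 0.78 at 12 h, and by 0.05 at 2 h and −0.16 at 24 h. Syp, synaptophysin of synaptic-like vesicles, differed by −0.77 at 12 h, and by 0.14 and 0.27 at 2 and 24 h. By pair (1, 10 and 20 µM) Syp differed by −0.10, 0.75 and −0.22 at 2 h and by −0.04, 0.50 and 0.34 at 24 h. Its signal at 12 h was 8.63, 9.37 and 9.85 at 22.7 mM, against 10.02, 9.95 and 10.20 at 5.5 mM, so that the 1 µM pair gave the largest share, and a second, weaker probe set had a mean difference of 0.26. Acsl4, an acyl-CoA synthetase for arachidonate, differed by −0.88 at 12 h, and by 0.06 and 0.10 at 2 and 24 h. By pair it differed by −0.19, 0.59 and −0.23 at 2 h and by −0.38, 0.44 and 0.23 at 24 h. The 10 µM pair of 24 h holds the other deviating array.

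Of the 126 genes called without both deviating arrays, 88 of the 94 that rose had a positive difference at 2 h and 89 at 24 h, beside 70.0% and 72.1% of all genes with a difference above 0. Of the 32 that fell, 31 had a negative difference at 2 h and 27 at 24 h, beside 63.6% and 54.2%. In the single untreated pair the shares were 48 of 94 and 19 of 32, beside 49.5% and 58.0% of all genes. The untreated pair is 1 array against 1, and the spread of the pairs of 2 and 24 h entered the error of the calls. Fxyd6 differed by 0.47 in untreated cells, and by 0.90, 1.63 and 1.01 at 2, 12 and 24 h. Hspa5 differed by −0.38 in untreated cells, and by −0.50, −0.84 and 0.13 at 2, 12 and 24 h. Baiap3 differed by −0.34 in untreated cells, and by 0.81, 1.24 and 0.55 at the 3 times.

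The lists followed different courses over time. The integrated stress response list had a median of −0.77 in the untreated pair, of −0.07 at 2 h, −0.31 at 12 h and −0.49 at 24 h, and in the 1 µM pair of 2 h it was 0.50. Trib3 differed by −1.92 in untreated cells and by −0.29, −0.60 and −1.17 at 2, 12 and 24 h. The ER chaperone list had a median of −0.15 in untreated cells, and of −0.21, −0.26 and −0.11 at the 3 times. Glucose uptake and glycolysis had −0.01 in untreated cells, and 0.09, 0.21 and 0.35 at the 3 times, and the proteasome list had 0.08, and −0.21, −0.16 and 0.10. The medians of 12 and 24 h each include a pair with a deviating array, which at 24 h is the 10 µM pair. The medians of 24 h by pair (1, 10 and 20 µM) were −0.66, −0.26 and −0.56 for the integrated stress response. They were −0.06, 0.09 and −0.25 for ER chaperones, 0.19, 0.67 and 0.29 for glycolysis, and 0.05, 0.20 and 0.02 for the proteasome. None of these courses was tested as a list, and no member passed the test between times.

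**Figure D5:**
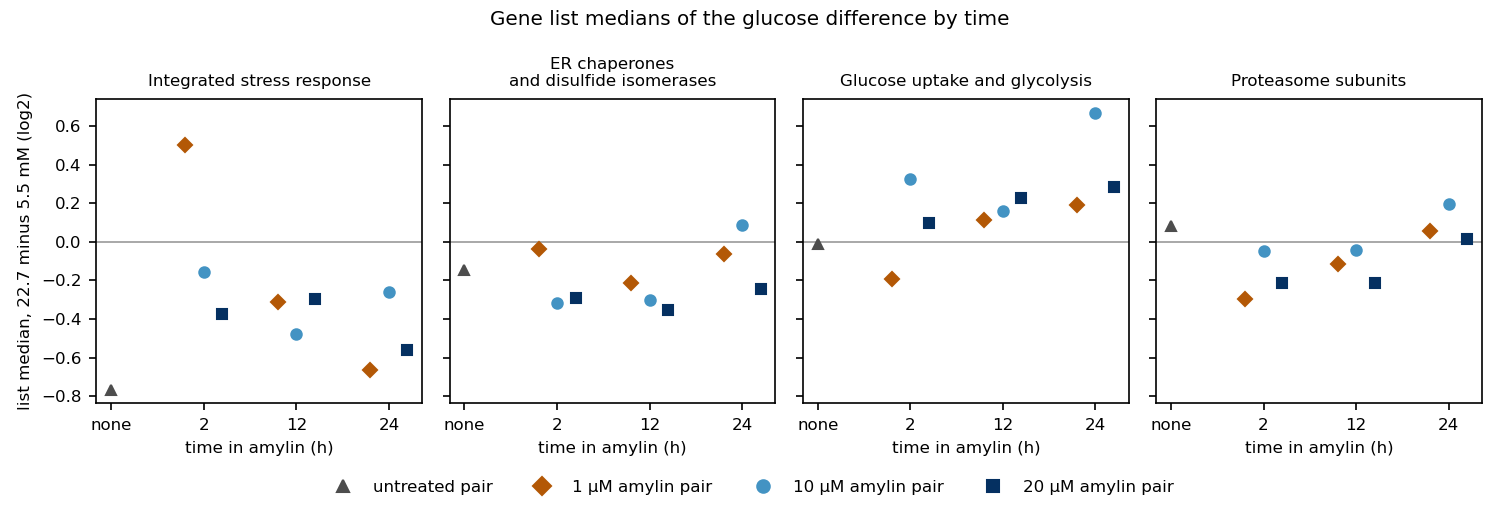
Median difference (22.7 minus 5.5 mM glucose, log2) of 4 gene lists in each dose-matched pair, in untreated cells and after 2, 12 and 24 h of amylin. The ER chaperone medians of 12 h are −0.21, −0.30 and −0.36, and those of the integrated stress response lie below 0 in every pair except the 1 µM pair of 2 h.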

How the data were processed

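RNA from MIN6 cells was hybridised to 1 Affymetrix mouse array per condition. The deposited table holds log2 values, which the authors made with RMA in affy 1.12.2 under R 2.4.0, per the submitters' processing notes. The sources used here do not give whether RMA was run once over all arrays. From the scanner files of 18 arrays, the scan day (4 days) and the chip lot (1) were taken and nothing else. Arrays give no counts, and precision is limited by how many there are.

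Of 22690 probe sets, 64 controls served as quality measures, and 20380 with exactly 1 gene in the platform annotation were kept (691 had several and 1555 none). For each of 12393 genes the brightest probe set (mean of 20 arrays) was used. Genes in the lowest 40% by that mean (below 7.08) were dropped, which left 7436 for testing. Mafa and Ins1 were not analysed here.

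The model was fitted in limma 3.58.1 under R 4.3.3 (lmFit, eBayes with trend) on the 18 treated arrays, with a factor for the 9 dose-by-time conditions and a glucose term for each time, and p-values were adjusted over 7436 genes (Benjamini-Hochberg, threshold 0.05). The 6 arrays of 12 h alone leave 2 residual degrees of freedom, and an exact sign-flip test over 3 pairs cannot go below p = 0.25. The procedure was tested on simulated data. Gene lists were described by counts and medians, without a test.

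Genes were named by a rule: the 10 of smallest p in each direction with the same sign in all 3 pairs, named as not passing because fewer than 5 passed, up to 4 members of each of 32 lists, a short list of beta cell and stress genes, and 5 in each direction for the contrast between times. Further genes were named from the calls of the fit without both arrays that lack a scanner description, or for their promoter motif, after their values were seen. The comparison and the lists were chosen with earlier results of these data known. Alternatives were the filter, the scaling, the probe set rule, the eBayes settings, the model for dose, scan day, the actin 3′ minus 5′ signal as a covariate, and each pair or both deviating arrays left out. Combinations that drop both arrays were chosen after seeing the data. Promoters came from RefSeq (GRCm38.p6).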

Additional observations from a re-analysis of the deposited data

Results flagged for a closer look

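Among the 10 arrays at 22.7 mM glucose, that of 1 µM amylin and 12 h had the highest median (7.25) and the lowest mean correlation with the other arrays (0.972), each far from the nearest of the other 9 for the range of the group. Among the 10 arrays at 5.5 mM, that of 10 µM amylin and 24 h did so with 7.28 and 0.962. In the same 10 arrays at 5.5 mM, the actin 3′ minus 5′ signal was far above the others in the array of 10 µM amylin and 12 h (1.77), which is a member of the comparison at 12 h. By chance about 1 group in 20 holds such an array.

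Among the 112 genes named in the text, 3 differed one way in every pair of 12 h and the other way in every pair of another time, and 12 h was not tested against that time alone. Of all 7436 genes, 82 did so against 2 h (1.1%) and 275 against 24 h (3.7%). Tlk2, a kinase gene of chromatin assembly, differed by 0.33 at 12 h, and by −0.23 at 2 h and −0.29 at 24 h. Syt7 differed by 0.42 at 12 h and by −0.36 at 24 h. Trib2, a pseudokinase gene, differed by −0.53 at 12 h and by 0.32 at 24 h. None of the 3 passed for 12 h against the mean of 2 and 24 h (adjusted p = 0.855 for each).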

How the results depend on the processing

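No gene passed with 3 matched pairs, nor with the lowest 60% of genes left out, with the arrays centred or quantile normalized again, with the mean of all probe sets, without trend or with robust estimation, with the actin 3′ minus 5′ covariate, or with the 6 arrays of 12 h alone. Without the filter 4 genes passed and with an additive dose term 16. With scan day as a term and dose additive 25 passed, in a fit that also lacks both arrays with no scan day. Of those 25, 17 were among the 126 calls without both arrays. With dose not matched, so without the block that pairs the arrays, 21 passed. Leaving out 1 pair gave 0 to 9 genes, the 9 without the 1 µM pair and 0 without the 10 or the 20 µM pair. Without both arrays that lack a scanner description 126 passed, with 103 for the mean of all probe sets, 92 for centred arrays, 38 with the actin covariate, 458 with dose not matched and 125 without trend. These last 5 settings were chosen after the data were seen. In each setting run, all 126 calls kept the sign they had without both arrays, except for 1 gene with the mean of all probe sets and for those left out by the 60% filter. Each setting used the 10 or the 20 µM pair, from which these calls came, so the kept signs largely followed from the choice of genes. The contrast of 12 h with the other times gave 0 genes throughout. Centring turned the split at an unadjusted p under 0.05 to 364 higher and 470 lower, against 644 and 399, and moved the median of all genes to 0.01.

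The signs of a few small differences turned. Pdx1 at 12 h gave −0.20 with the mean of all probe sets, −0.0675 to 0.324 over the pairs left out, and −0.19 with the mean of all probe sets and both arrays left out. Ero1b at 12 h gave −0.11 with the mean of all probe sets and −0.0302 with both arrays left out as well. Calr at 12 h gave 0.0167 after quantile normalization and 0.00248 with scan day as a term. Col1a2 at 12 h gave −0.117 to 0.274 over the pairs left out, and −0.12 without the 1 µM pair, without both arrays, with centring and without trend, −0.16 with the actin covariate and −0.11 with dose not matched, the last 4 with both arrays left out. Ccng1 at 12 h gave 0.00836 without both arrays (also without trend), 0.00636 with both arrays left out and centring and 0.135 with scan day as a term, with −0.984 to 0.00836 over the pairs left out. Prss2 at 12 h gave −0.0118 with the actin covariate and both arrays left out. Tlk2 at 12 h gave −0.00449 with the mean of all probe sets and both arrays left out. The cause was not tested in any of these.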
